A study of Mus musculus with 8 samples.

Results

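The genes described here encode the enzymes and adaptors that act first when an activating receptor of a natural killer (NK) cell is engaged. They are the tyrosine kinases Syk and Fyn, the adaptor Lcp2 (SLP-76), the exchange factors Vav1 and Vav3, the phospholipases Plcg1 and Plcg2, and the phosphatases Ptpn6 (SHP-1), Ptpn11 (SHP-2) and Ptprc (CD45). Their regions were taken from 8 lists of ATAC-seq peaks, the stretches of chromatin that a transposase could enter. A peak belonged to a gene when the nearest end of any protein-coding gene, within 50 kb, was an end of that gene. This gave 770 of the 364277 peaks in the 8 lists. They merged into 116 of 55946 regions, and the 10 genes stand among 21887 protein-coding genes.

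The cells were splenic NK cells enriched with DX5 beads, sorted as CD49b+ CD3e- and assayed at steady state, with 200000 cells from each mouse. The MUT group was 4 mice (replicates 26, 27, 28 and 29) whose HSF1, the transcription factor of the heat shock response, carries alanine in place of serines 303 and 307 (S303/7A). The WT group was 4 mice (replicates 4, 5, 6 and 7) with wild-type HSF1, and the series asks how the stress response state of NK cells bears on anti-tumor immunity. The labels used here give no age, sex, strain or litter, and say nothing of whether the change was limited to NK cells, so any other difference between the 2 sets of mice cannot be told apart from the genotype.

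In NK cells, receptors such as NK1.1, NKp46 and CD16 signal through partner chains with tyrosine motifs that Src-family kinases, Fyn among them, phosphorylate. Syk and its relative Zap70 dock on the phosphorylated motifs and, with Lcp2 as a scaffold, bring Vav proteins and phospholipase C gamma into action, which leads to actin rearrangement, calcium release and degranulation. Ptprc keeps the Src-family kinases ready by removing an inhibitory phosphate, whereas Ptpn6 is recruited by inhibitory receptors such as Ly49 proteins and opposes the kinases, with Vav1 among its known substrates. Ptpn11 shares the same domain plan as Ptpn6 and is also recruited by inhibitory receptors, but in many cells it acts in growth factor signalling.

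Every one of the 10 genes had called peaks in all 8 libraries, and 9 of the 10 had a region over an annotated promoter window. The window runs from 250 bases before to 50 bases after a transcription start, and RefSeq (GRCm38.p6) gives 14 such windows for the 10 genes. Shares over all genes were not worked out for those counts of genes, so neither is read as a trait of the 10. The start lay inside a peak in 8 of 8 libraries for 10 of the 14 windows and in 0 of 8 for the other 4. Over 21263 windows of protein-coding genes these shares were 45.2% and 49.4%. The uncovered starts were the only one of Lcp2, the only one of Ptpn6, the downstream start of Syk and the most downstream of the 3 starts of Vav3.

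Promoter sequences are shown for 4 genes. Those of Lcp2 and Ptpn6 are shown because no peak covered their starts. Those of Plcg2 and Ptpn11 are shown because they hold the single matches to a heat shock element core and to an ETS core. Each runs 5′ to 3′ on the gene's own strand. In the Lcp2 window (chr11:34046678-34046977, plus strand) the capitals mark the bases inside a called peak in 8 of 8 libraries. In the Plcg2 window (chr8:117498025-117498324, plus strand) they mark the heat shock element core. In the Ptpn6 window (chr6:124738660-124738959, minus strand) they mark 3 GC boxes. In the Ptpn11 window (chr5:121191348-121191647, minus strand) they mark an ETS core and then a GC box.
Lcp2: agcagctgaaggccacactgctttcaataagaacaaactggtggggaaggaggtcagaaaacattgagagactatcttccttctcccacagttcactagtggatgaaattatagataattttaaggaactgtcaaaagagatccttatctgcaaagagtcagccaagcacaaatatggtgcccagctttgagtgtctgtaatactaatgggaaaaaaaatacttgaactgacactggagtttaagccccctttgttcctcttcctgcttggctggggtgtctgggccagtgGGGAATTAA
Plcg2: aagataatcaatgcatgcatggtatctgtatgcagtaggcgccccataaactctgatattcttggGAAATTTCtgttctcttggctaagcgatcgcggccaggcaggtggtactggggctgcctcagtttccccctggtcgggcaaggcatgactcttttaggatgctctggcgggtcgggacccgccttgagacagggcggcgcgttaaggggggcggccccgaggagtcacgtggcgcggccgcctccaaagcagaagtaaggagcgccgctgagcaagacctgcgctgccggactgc
Ptpn6: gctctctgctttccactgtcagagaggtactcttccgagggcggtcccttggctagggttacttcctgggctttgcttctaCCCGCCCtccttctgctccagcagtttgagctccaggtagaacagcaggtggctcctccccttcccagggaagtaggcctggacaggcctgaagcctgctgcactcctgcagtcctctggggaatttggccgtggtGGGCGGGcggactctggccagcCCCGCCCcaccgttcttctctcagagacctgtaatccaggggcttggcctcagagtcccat
Ptpn11: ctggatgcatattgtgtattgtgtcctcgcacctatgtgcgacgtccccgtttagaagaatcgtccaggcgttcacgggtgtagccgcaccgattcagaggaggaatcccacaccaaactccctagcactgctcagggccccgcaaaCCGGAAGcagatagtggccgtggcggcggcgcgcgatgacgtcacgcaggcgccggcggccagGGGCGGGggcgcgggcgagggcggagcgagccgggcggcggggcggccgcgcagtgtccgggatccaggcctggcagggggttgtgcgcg

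The Lcp2 peak began just downstream of the start, so that only the last 9 bases of the window were covered in 8 of 8 libraries. The covered part was 16, 14, 15 and 9 bases in MUT libraries, against 33, 33, 25 and 37 bases in WT libraries. All 4 MUT values lay below all 4 WT values, a shift of the called edge by under 30 bases. Among 10046 protein-coding windows touched by a peak in 8 of 8 libraries, 1.11% had MUT values below WT in this way and 0.289% had them above. Among the 11 such windows of these 10 genes, Lcp2 was the only one below, and 0 were above. Ptpn6 had 0 covered bases in 8 of 8 libraries, and its nearest region began over 5 kb inside the gene. In human cells PTPN6 is known to have a second promoter downstream of the first that blood cells use; the RefSeq promoter table used here lists a single mouse start.

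The windows were searched on both strands for short motifs, and a match is only a match of letters. The shares and the median here are over 32851 windows, a larger set than the 21263 windows of protein-coding genes used for the starts. The heat shock element core GAANNTTC occurred in 7.86% of 32851 windows and in that of Plcg2, where it starts 185 bases before the start. It lay outside the peak in 7 of 8 libraries and inside it in 1. The other orientation, TTCNNGAA, occurred in 8.52% of windows and in 0 of the 14. The ETS core CCGGAAG occurred in 8.86% of windows and in that of Ptpn11, 103 bases before the start and inside a peak in 8 of 8 libraries. The AP-1 site TGANTCA occurred in 7.81% of windows and at the uncovered downstream start of Vav3. The RUNX core TGTGGT (16.8% of windows) and the T-box core AGGTGTGA (1.28%) matched 0 of the 14. The GC box GGGCGGG, found in 25.6% of windows, matched 6 of the 14, which belong to Fyn, Vav3 (2 windows that overlap each other), Plcg1, Ptpn6 and Ptpn11. Base composition set the genes apart. The upstream Vav3 windows held 74.3% and 78% G or C and those of Ptprc 33.7% and 39.3%, with a median of 52.7% over all windows.

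**Figure D1:**
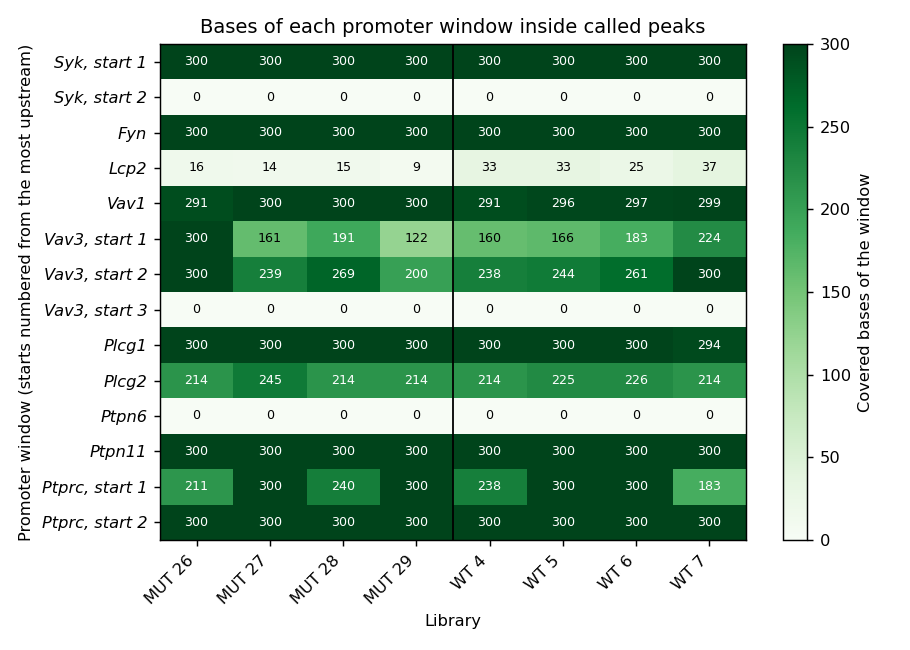
Bases of each promoter window (300 bases in full) inside called peaks, for the 14 windows (rows) in the 4 MUT and 4 WT libraries (columns), with the number in each cell. The windows of Ptpn6, of the second Syk start and of the most downstream Vav3 start were at 0 in every library, and that of Lcp2 had 9 to 37 bases.

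A score of unnamed meaning accompanies each peak. It was used only as a percentile of its rank within its own list, which is high for peaks with a high score. The lists differ in length, so percentiles describe a region and no change is read from them. The promoter regions spanned most of the scale. Over 9004 regions at protein-coding promoter windows that were called in 2 or more libraries, the median percentile was 76.6. That of Ptpn11 averaged 90.7 and those of Fyn, Vav3, Plcg2, Syk and Vav1 lay at 84.2, 77.1, 76.5, 74.2 and 73.4. Those of Plcg1 and Ptprc were lower, at 60.7 and 46.2, and that of Lcp2 was at 26.3, with 9.48% of promoter regions below it.

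In most of these genes the strongest peak was not at the promoter. The highest mean percentile was at a region other than the promoter in 8 of the 10 genes, the exceptions being Vav1 and Vav3. Ptpn6 had no region at its promoter window, so its place among the 8 was fixed in advance. The strongest region of Plcg1 lay inside the neighbouring gene Zhx3. The share over all genes was not worked out, so the count is not read as a trait of these genes. The single strongest region of all lay in the body of Fyn, 165.7 kb from its start (chr10:39535195-39535787), with percentiles of 97.6, 96.7, 98.3 and 98 in MUT libraries and 98, 95.1, 97.1 and 97.9 in WT libraries. Next among linked regions came a pair of further Fyn regions at 21 and 33 kb, with mean percentiles of 94.3 and 92.2. Regions at a mean of 91 or more also lay 84.2 kb downstream of the Ptpn11 start, 17.1 kb inside Lcp2 and 16.4 kb upstream of Plcg2. Together with the Ptpn11 promoter these made 7 linked regions over the 90th percentile. Across the 104 regions found in at least 2 libraries the median percentile was 37.6 and the median width 450 bp, and over all 50044 such regions they were 43.8 and 477 bp.

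**Figure D2:**
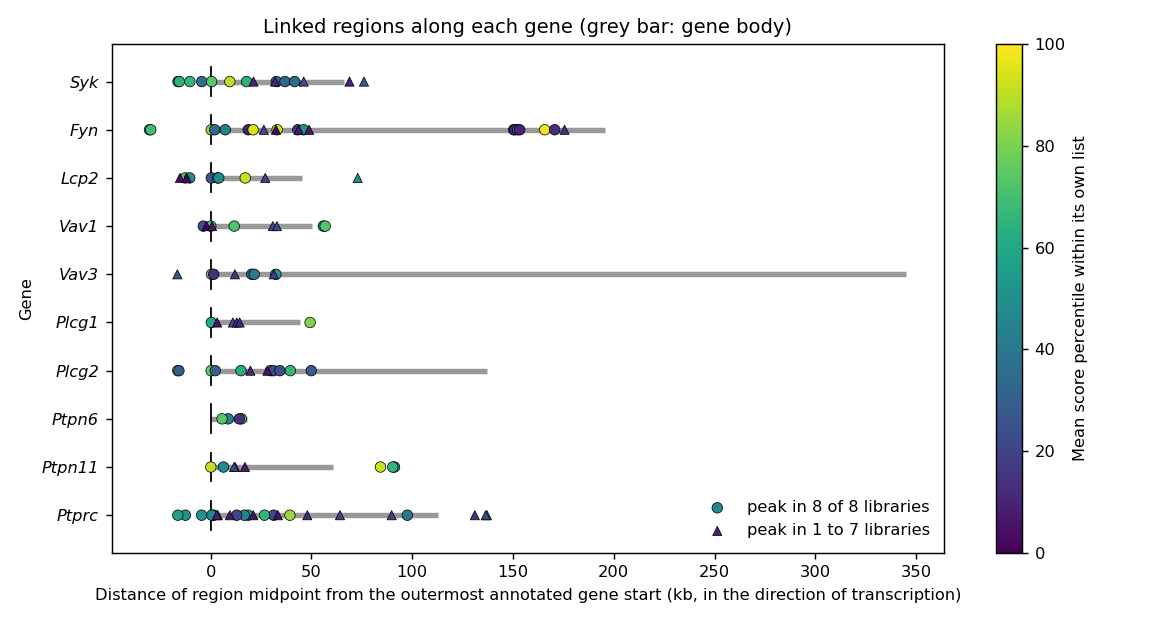
Midpoints of the 116 linked regions along the 10 genes (rows), as distance in kb from the outermost gene start in the direction of transcription, coloured by the mean score percentile; circles had a peak in 8 of 8 libraries and triangles in 1 to 7. The brightest circles, in Fyn, lie 21 to 165.7 kb from the start, and stretches over 50 kb from both gene ends, as in the middle of Fyn and Vav3, are left out by the linking rule.

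The genes differed widely in how many regions they held. Of linked regions called in 2 or more libraries, Ptprc had 20 and Fyn 19, more than 99.7% and 99.6% of the genes that had any such region. Syk and Plcg2 followed with 12 each, Lcp2 with 9, Vav1 and Vav3 with 8 each, Ptpn11 with 7, Plcg1 with 5 and Ptpn6 with 4. Of the 104 regions, 75 (72.1%) had a peak in all 8 libraries, against 68.9% of all 50044. All 4 regions of Ptpn6 did, but only 2 of 5 of Plcg1. Of the 116 regions, 76 lay in gene bodies, 18 upstream, 12 downstream, 9 at promoter windows and 1 within 1 kb of a gene end elsewhere. A peak in sorted bulk cells does not tell whether many cells were open a little or few cells were open fully.

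Set against WT, none of the 10 genes passed the test for the length of open chromatin linked to it. The lengths of a gene's peaks were summed, scaled to equal totals and compared by limma on log2(bp + 200), with adjustment over all 14259 genes tested. At an adjusted p under 0.05, 0 of the 10 passed, with 0.673% of all genes called, 0.442% higher in MUT and 0.231% lower. At an unadjusted p under 0.05 there was 1 of 10 (Lcp2), against 11.2% of all genes. Scaled lengths without overlap between the genotypes occurred in 0 of the 10, against 6.77% of all genes (3.06% with MUT higher and 3.7% with MUT lower). The median difference was 0.02 (log2, MUT minus WT) over the 10 genes, with 7 above 0, and -0.02 over all genes. The share of all genes above 0 was not worked out, so no such count, here or below, is read as a trait. The bp values that follow are unscaled, whereas the log2 differences come from scaled lengths, so the signs of small differences may disagree.

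No region linked to the 10 genes within 50 kb was called in every library of one genotype and none of the other. A region in the Plcg2 body beyond that limit, described below, was called in 4 of 4 MUT and 0 of 4 WT libraries. Over all 50044 regions 0.583% were MUT-only in this sense and 0.178% WT-only. Fisher's exact test per region, two-sided, cannot go below 0.0286 with 4 against 4 libraries; 381 regions reached that value and 0 passed after adjustment. In a looser sense, 4 of the 104 regions (3.85%) had a peak in at least 3 MUT libraries and at most 1 WT library, near the 4.1% of all regions, and 0 had the reverse, against 1.94%. For the 75 regions in 8 of 8 libraries, the covered length was also tested by limma. Of these, 0 passed, against 0.0754% of 34461 regions, and 4 (5.33%) had an unadjusted p under 0.05, against 9.4%. The median width difference was 0.0033 (log2) over the 75 and -0.0077 over all. Covered lengths without overlap and higher in MUT occurred in 1 of the 75 (1.33%), against 3.76% of all, and 0 were lower without overlap, against 1.65%.

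**Figure D3:**
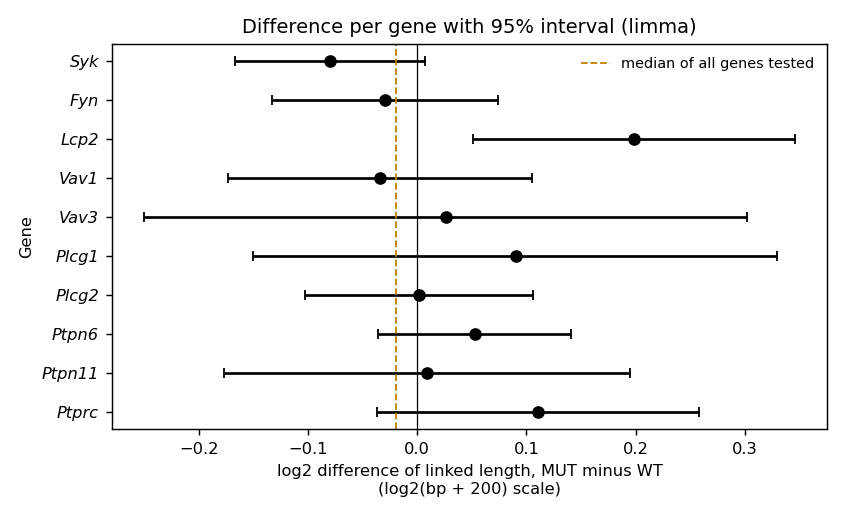
Difference of linked open length for each of the 10 genes (rows) as log2(bp + 200), MUT minus WT, with its 95% interval from limma; the dashed line is the median of all 14259 genes tested. The interval of Lcp2 lies above 0, from 0.05 to 0.35, and the other 9 cross it.

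Among the kinases, Syk, which docks on phosphorylated receptor motifs, had overlapping lengths in the genotypes. Its linked length (gene at chr13:52582610-52648792) was 6861, 7034, 6710 and 6193 bp in MUT libraries, against 7040, 7293, 6967 and 6311 bp in WT libraries. The ranges overlapped, and the difference was -0.08 on the log2 scale (SE 0.04, 95% interval -0.17 to 0.01; limma, adjusted p = 0.49). Its promoter region (chr13:52582365-52583725) had 1329, 1337, 1356 and 1328 bp in MUT libraries and 1320, 1337, 1320 and 1348 bp in WT libraries. Its strongest region, 9.5 kb inside the gene (chr13:52591718-52592428), had 662 ± 43.3 bp in MUT and 656 ± 18.1 bp in WT (SD, n = 4 each).

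One region inside Syk was narrower in most MUT libraries. At 32.5 kb from the start (chr13:52614818-52615499) the covered length was 533, 360, 358 and 355 bp in MUT libraries, against 664, 652, 514 and 556 bp in WT libraries. One MUT library lay within the WT range and 3 lay below it. The difference was -0.60 (log2, SE 0.15; limma, unadjusted p = 0.0038, adjusted p = 0.287 over all 34461 regions). With the lists cut to equal numbers of peaks it was -0.79 and passed (limma, adjusted p = 0.0346; 31 of all 32525 regions tested passed there), the one setting under which any of these regions did; over all alternatives the adjusted p ran up to 0.474. Its percentiles averaged 39.4 in MUT and 29.8 in WT.

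Fyn, the Src-family kinase, has the second highest number of linked regions of the 10, and its lengths overlapped between the genotypes. Its linked length (chr10:39369743-39565381) was 6897, 7364, 7144 and 6980 bp in MUT libraries, against 6947, 7454, 7391 and 6447 bp in WT libraries. The MUT values lay inside the WT range (log2 difference -0.03, SE 0.05; limma, adjusted p = 0.852). The promoter region (chr10:39369414-39370576) covered 1090, 1140, 1111 and 1147 bp in MUT libraries and 1131, 1128, 1132 and 1138 bp in WT libraries. The strongest region covered 579 ± 10.5 bp in MUT and 564 ± 7.41 bp in WT (SD, n = 4 each; log2 difference 0.02, limma, adjusted p = 0.923).

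A small Fyn region 2 kb from the start (chr10:39371516-39371889) was the one whose covered lengths did not overlap. It had 374, 366, 358 and 371 bp in MUT libraries, against 355, 349, 326 and 327 bp in WT libraries. The gap between the nearest values was a few bases, and the log2 difference after scaling was 0.10 (SE 0.06; limma, adjusted p = 0.655). A weak Fyn region at 18.6 kb (chr10:39388209-39388523), with a mean percentile of 9.58, had 254, 302, 309 and 297 bp in MUT libraries and 268, 262, 227 and 209 bp in WT libraries. One MUT library lay inside the WT range there, and the difference of 0.25 (SE 0.10) did not pass (limma, adjusted p = 0.469).

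The Fyn body held more open chromatin than the linking rule takes in. There were 23 further regions more than 50 kb from both ends of the gene, of which 17 had peaks in 8 of 8 libraries, ranging from 51.6 to 145.1 kb from the start. The one nearest the start (chr10:39420981-39421654) had percentiles of 83.9, 76, 82.6 and 80.5 in MUT libraries and 73.1, 72.2, 75.4 and 72.6 in WT libraries. These regions enter no count for Fyn.

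Lcp2, the scaffold on which Vav proteins and phospholipase C gamma meet, had the largest difference of the 10 on the scaled log2 scale with all libraries in; in bp that of Ptprc was larger. Lcp2 had 3377, 3961, 3981 and 3810 bp in MUT libraries, against 3060, 3042, 3437 and 3175 bp in WT libraries (chr11:34046928-34092281). Of the MUT libraries, 3 lay above all WT libraries, and the other lay under the highest of them. The difference was 0.20 (log2, SE 0.06, 95% interval 0.05 to 0.35; limma, unadjusted p = 0.0142), which did not pass after adjustment (limma, adjusted p = 0.287).

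The extra length came from regions that some libraries lacked. In the 6 Lcp2 regions with peaks in 8 of 8 libraries the sum was 3071 ± 126 bp in MUT and 3032 ± 51.5 bp in WT (SD, n = 4 each). In its other regions it was 711 ± 236 bp in MUT and 147 ± 180 bp in WT. With peaks linked only within 10 kb, which leaves out those 4 regions and also 3 of the 6 in 8 of 8 libraries, the log2 difference was 0.0044 (limma, adjusted p = 0.999). Of the 4 regions, one upstream of the gene was called in 1 MUT library alone and another in 1 MUT and 1 WT library. One more, 72.9 kb from the start and downstream of the gene (chr11:34119581-34120140), had 373, 560, 274 and 422 bp in MUT libraries, against 0, 0, 369 and 0 bp in WT libraries. Peaks were thus called in 4 of 4 MUT and 1 of 4 WT libraries (Fisher's exact test, two-sided, p = 0.143). The last, 27 kb inside the gene (chr11:34073787-34074161), had 0, 342, 255 and 200 bp in MUT libraries, against 0 bp in all 4 WT libraries (exact p = 0.143). Its called peaks were weak, with percentiles of 32.2, 15.7 and 11.2. The depth of the libraries is unknown, and its part in these calls was not tested.

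The lengths of the strongest Lcp2 region overlapped. This region, 17.1 kb inside (chr11:34063626-34064458), had 810, 824, 832 and 776 bp in MUT libraries and 782, 826, 765 and 808 bp in WT libraries (log2 difference 0.01, limma, adjusted p = 0.957). The promoter region (chr11:34046941-34047451) had 315, 296, 489 and 289 bp in MUT libraries, against 363, 369, 357 and 339 bp in WT libraries. Of the MUT values, 3 lay below all WT values and 1 above them (log2 difference -0.09, SE 0.15; limma, adjusted p = 0.901). The annotation also places a long non-coding RNA gene, 4930469K13Rik, over the body of Lcp2 and the stretch upstream of it.

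**Figure D4:**
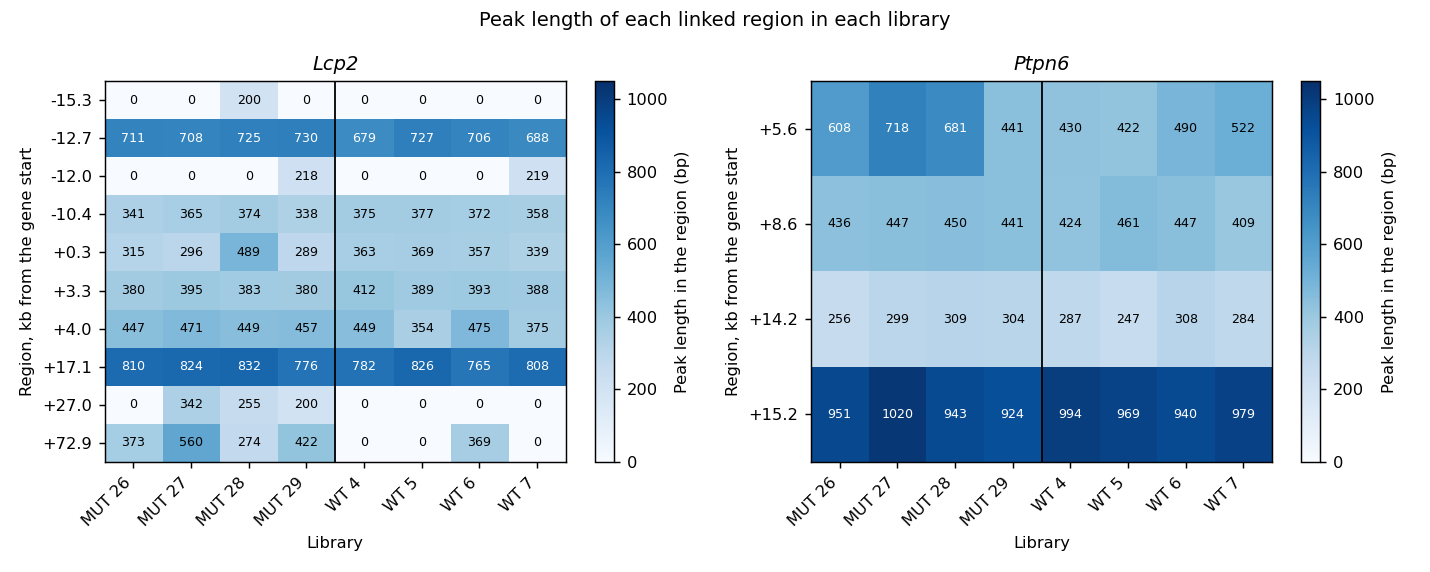
Covered length in bp of each linked region (rows, kb from the gene start) of Lcp2 and Ptpn6 in the 4 MUT and 4 WT libraries (columns), with the number in each cell. In Lcp2 the rows at 27 and 72.9 kb are filled mostly on the MUT side, and in Ptpn6 the row at 5.6 kb is darkest in 3 MUT libraries.

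Of the exchange factors, Vav1 is the main form in blood cells. Its linked length (chr17:57279100-57329236) was 2761, 3196, 2959 and 3194 bp in MUT libraries, against 3097, 3065, 3088 and 2823 bp in WT libraries. The ranges overlapped (log2 difference -0.03, SE 0.06; limma, adjusted p = 0.871). The promoter region (chr17:57278842-57279400) had 466, 505, 552 and 475 bp in MUT libraries and 463, 467, 482 and 479 bp in WT libraries. A region 3.7 kb upstream of it (chr17:57275088-57275747) had 566, 635, 602 and 540 bp in MUT libraries, against 637, 655, 616 and 634 bp in WT libraries. Of the MUT values, 3 lay below all WT values, and the difference of -0.14 (SE 0.04) did not pass (limma, unadjusted p = 0.0087, adjusted p = 0.352). Its widest region, 11.7 kb inside (chr17:57290291-57291229), had 926 ± 12.2 bp in MUT and 917 ± 8.04 bp in WT (SD, n = 4 each).

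Vav3, a more widely expressed relative, varied widely among the MUT libraries. It had 2464, 3258, 2840 and 1758 bp in MUT libraries, against 2639, 2450, 2328 and 2217 bp in WT libraries (chr3:109340465-109685694). The MUT libraries spread on both sides of the WT range (log2 difference 0.03, SE 0.12, 95% interval -0.25 to 0.30; limma, adjusted p = 0.955). The promoter region (chr3:109340421-109341293) had 869, 722, 664 and 575 bp in MUT libraries and 591, 619, 630 and 729 bp in WT libraries. A region at 31.3 kb (chr3:109371588-109371937) was called in 3 of 4 MUT and 1 of 4 WT libraries (Fisher's exact test, two-sided, p = 0.486), with 208, 236, 258 and 0 bp in MUT libraries and 0, 312, 0 and 0 bp in WT libraries. Deeper in this long gene, 6 regions lay over 50 kb from either end, 3 of them with peaks in 8 of 8 libraries.

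The phospholipases, which cleave a membrane lipid to release the calcium signal, differed from each other in layout. Plcg1, the broadly expressed form, had 5 regions in 2 or more libraries, still more than 82.3% of the genes that had any such region. Plcg2, the form prominent in B cells and NK cells, had 12. Plcg1 had 1909, 2772, 2369 and 1581 bp in MUT libraries, against 1929, 1920, 1954 and 1872 bp in WT libraries (chr2:160731310-160775760). The WT libraries lay close together and the MUT libraries on both sides of them, with an SD of 522 bp in MUT and 34.3 bp in WT (log2 difference 0.09, SE 0.10; limma, adjusted p = 0.807). It was 0.0049 when MUT replicate 27 was left out, 0.05 when 28 was and 0.18 when 29 was. A weak region 3.2 kb inside (chr2:160734374-160734640) was called in 3 of 4 MUT and 0 of 4 WT libraries, at percentiles of 6.3, 8.37 and 1.8 (Fisher's exact test, two-sided, p = 0.143). The promoter region (chr2:160730969-160732262) had 1076, 1078, 868 and 829 bp in MUT libraries and 1271, 832, 1025 and 1197 bp in WT libraries. Its strongest region (chr2:160780150-160781079) lay beyond the end of Plcg1, inside the neighbouring gene Zhx3, and had 770 ± 132 bp in MUT and 735 ± 105 bp in WT (SD, n = 4 each). A further 2 regions inside the Plcg1 body were nearer to an end of Zhx3 and are not counted.

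The lengths of Plcg2 overlapped as well. It had 5640, 6146, 5871 and 5963 bp in MUT libraries, against 5586, 5767, 5850 and 5741 bp in WT libraries (chr8:117498275-117635142; log2 difference 0.0019, SE 0.05; limma, adjusted p = 0.993). Its promoter region (chr8:117498080-117498915) had 781, 831, 805 and 719 bp in MUT libraries and 746, 806, 797 and 725 bp in WT libraries. The strongest linked region lay 16.4 kb upstream (chr8:117481582-117482221). There the lengths were 369, 628, 607 and 619 bp in MUT libraries and 442, 565, 535 and 609 bp in WT libraries. Its widest region (chr8:117532140-117533007), 34.3 kb inside, had 743 ± 157 bp in MUT and 736 ± 118 bp in WT (SD, n = 4 each).

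The Plcg2 body also held 2 regions beyond the 50 kb limit. One (chr8:117548399-117548945) was strong in every library. Its percentiles were 96.1, 95.8, 94.8 and 95.9 in MUT libraries and 91.3, 91.2, 94.8 and 93.3 in WT libraries. It ranked above the strongest linked region, which ran from 83.4 to 93.4, in all libraries but WT replicate 5. The other, 78 kb from the start (chr8:117576083-117576376), was called in 4 of 4 MUT and 0 of 4 WT libraries. Its peaks were short and low in rank, with 200, 293, 200 and 222 bp and percentiles of 11.6, 22.3, 18.9 and 15.5 in the MUT libraries. It is one of the 0.583% of regions that were MUT-only and was singled out after its values were seen.

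Among the phosphatases, Ptpn6 had the most compact set, 4 regions with peaks in 8 of 8 libraries and none elsewhere. Its linked length (chr6:124720707-124738709) was 2251, 2484, 2383 and 2110 bp in MUT libraries, against 2135, 2099, 2185 and 2194 bp in WT libraries. Of the MUT libraries, 3 lay above all WT libraries and 1 among them (log2 difference 0.05, SE 0.04; limma, adjusted p = 0.654). The region nearest its start, at 5.6 kb inside (chr6:124732710-124733465), had 608, 718, 681 and 441 bp in MUT libraries, against 430, 422, 490 and 522 bp in WT libraries. Of the MUT values, 3 lay above all WT values, and the difference of 0.36 (log2, SE 0.14) did not pass (limma, unadjusted p = 0.0284, adjusted p = 0.46). Its percentiles averaged 74 in MUT and 73.8 in WT. The widest Ptpn6 region (chr6:124722966-124723994), 15.2 kb from the start, had 960 ± 41.9 bp in MUT and 970 ± 22.8 bp in WT (SD, n = 4 each).

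Ptpn11 had the strongest promoter region of the 10 and overlapping lengths. It had 3595, 3566, 3222 and 3583 bp in MUT libraries, against 3051, 3438, 3778 and 3257 bp in WT libraries (chr5:121130533-121191397; log2 difference 0.01, SE 0.08; limma, adjusted p = 0.981). Its promoter region (chr5:121190865-121191829) had 939, 827, 865 and 863 bp in MUT libraries and 779, 774, 803 and 941 bp in WT libraries. The region 84.2 kb from its start, downstream of the gene (chr5:121106874-121107475), had 573 ± 14.3 bp in MUT and 565 ± 8.62 bp in WT (SD, n = 4 each).

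Ptprc, whose product CD45 marks blood cells, carried the most linked length. It had 8032, 8624, 7536 and 7593 bp in MUT libraries, against 6450, 8077, 7090 and 7017 bp in WT libraries (chr1:138062859-138175756). One WT library lay inside the MUT range and 3 lay below it (log2 difference 0.11, SE 0.06, 95% interval -0.04 to 0.26; limma, adjusted p = 0.586). As in Lcp2, regions in 8 of 8 libraries were close, at 5958 ± 127 bp in MUT and 5834 ± 234 bp in WT (SD, n = 4 each), and the others had 1988 ± 443 bp in MUT and 1325 ± 575 bp in WT. The promoter region (chr1:138174761-138175753) had 796, 886, 782 and 951 bp in MUT libraries and 733, 969, 896 and 439 bp in WT libraries. Its strongest region, 39.3 kb inside (chr1:138136135-138136824), had 665 ± 19.6 bp in MUT and 680 ± 10.2 bp in WT, and its widest (chr1:138191585-138192580), 16.3 kb upstream, had 954 ± 16.4 bp in MUT and 929 ± 15.2 bp in WT.

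**Figure D5:**
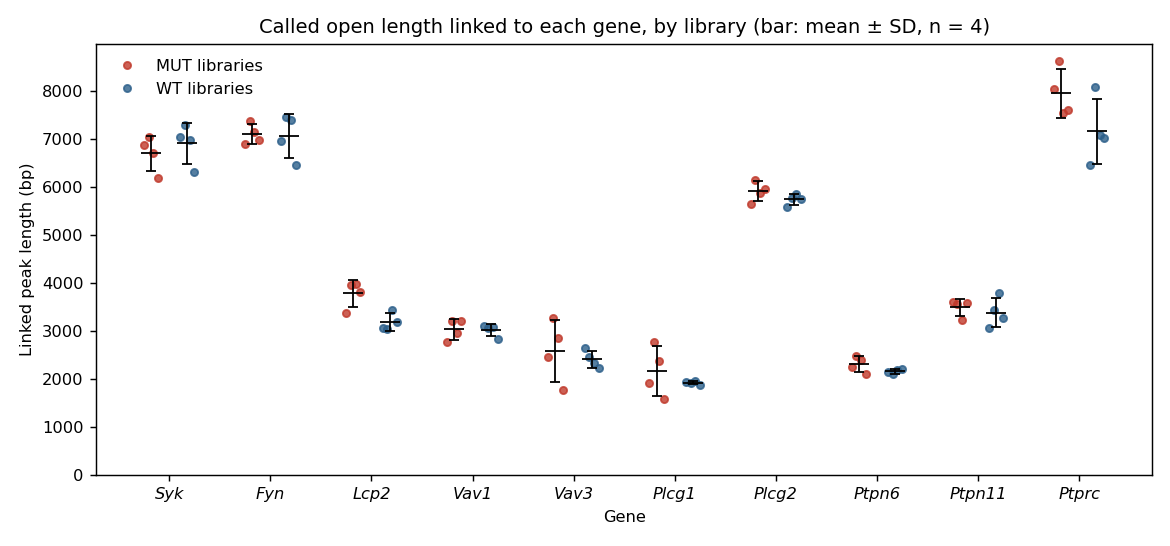
Linked peak length in bp (vertical axis, not scaled) for each of the 10 genes in each MUT and WT library (points), with the mean and SD of each group (n = 4 each). The points of the genotypes overlap in every gene; those of Lcp2 are the most separated, at 3377 to 3981 bp in MUT and 3042 to 3437 bp in WT.

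The wider pathway was described with 3 lists. In none did a gene pass the limma test in either direction, beside the 0.673% called over all genes. Counts at an unadjusted p under 0.05 (limma) stand beside 11.2% of all genes. Those of genes above 0 have no share over all genes beside them and are not read as a lean of the lists. Of 13 kinases of the same step, 8 were above 0 in log2 difference with a median of 0.02; 1 had an unadjusted p under 0.05, the Syk relative Zap70 (2549 ± 173 bp in MUT and 2737 ± 165 bp in WT; limma, adjusted p = 0.289). Of 20 negative regulators, 9 were above 0, with a median of -0.01; 1 had an unadjusted p under 0.05, the ubiquitin ligase gene Cbl (4648 ± 309 bp in MUT and 3929 ± 402 bp in WT; limma, adjusted p = 0.39). Of 23 adaptors and effectors, 15 were above 0, with a median of 0.03; 5 had an unadjusted p under 0.05, the lowest adjusted p being 0.273 for Prkcq (limma). Of the 235 regions of the adaptors and effectors, 2 were MUT-only and 1 WT-only, against 0.583% and 0.178% of all regions, and among the 93 of the kinases and 165 of the negative regulators there were 0 of either kind. Pik3r1, a regulatory subunit of PI3 kinase (chr13:101713770-101714053), and the calcium channel gene Itpr1 (chr6:108222971-108223250) had one each called in 4 of 4 MUT and 0 of 4 WT libraries. Pik3cd, a catalytic subunit of PI3 kinase (chr4:149701507-149701736), had one called in 0 of 4 MUT and 4 of 4 WT libraries.

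The libraries held 44827, 49627, 46623 and 44333 peaks in MUT and 45004, 46102, 45066 and 42695 peaks in WT, of which 93 to 105 in MUT and 86 to 100 in WT belonged to the 10 genes. The longest list was that of MUT replicate 27, which also had the most linked length for Vav1, Vav3, Plcg1, Plcg2, Ptpn6 and Ptprc. All 10 NK cell marker genes examined had peaks in 8 of 8 libraries. Of these, Klrb1c (NK1.1) passed as lower in MUT, at 5360 ± 213 bp in MUT and 6347 ± 259 bp in WT (SD, n = 4 each; limma, log2 difference -0.27, adjusted p = 0.0315). It was the 1 of the 10 to pass, beside 0.673% of all genes. At an unadjusted p under 0.05 (limma) there were 3 of the 10, beside 11.2% of all genes, and their directions were mixed. Ncr1 was higher in MUT, at 3448 ± 377 bp against 2855 ± 198 bp in WT (limma, adjusted p = 0.277). Eomes was lower, with a log2 difference of -0.10 (limma, adjusted p = 0.379). Cd4, Cd8a and the myeloid gene Lyz2 had no peak in any library, whereas 5 of 7 T cell markers had peaks in 8 of 8. The summed length of the T cell markers ran from 7539 to 8997 bp in MUT libraries and from 6881 to 7743 bp in WT libraries. Peaks in 8 of 8 were also found at 4 of 6 myeloid markers (4180 to 4989 bp in MUT and 4184 to 5229 bp in WT), at 3 of 5 basophil and mast cell markers (3667 to 4753 bp in MUT and 3613 to 4222 bp in WT) and at 4 of 5 markers of type 1 innate lymphoid cells (4583 to 5818 bp in MUT and 3894 to 5016 bp in WT). Syk, Plcg2, Ptpn6, Vav3 and Ptprc are also used by B cells, and 4 of 8 B cell markers had peaks in 8 of 8 libraries. Their summed length ran from 2840 to 4222 bp in MUT libraries and from 2714 to 3215 bp in WT libraries, and the median log2 difference of the 6 tested was 0.48, with 4 above 0 and 0 passing. At an unadjusted p under 0.05 (limma) there were 4, beside 11.2% of all genes, and they did not all lie on the same side of 0: Spib was below it, at -0.53. The share of all genes with peaks in 8 of 8 libraries was not worked out, so no marker list is called above or below it. The part of these other cell types in the values given above was not tested.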

How the data were processed

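ATAC-seq peaks were analysed for 4 MUT and 4 WT mice, 1 library each. The deposited lists, made for each library separately, give every peak an unnamed positive score, the authors' own value. Build mm10 (GRCm38) is named in the submitters' processing notes, as are the tools Trimmomatic, Bowtie2 2.3.4.1, DiffBind 3.0.12 and DESeq2, without their roles; the peak caller, threshold and read filters remain not given in the sources used here. As no read counts are included, depth is unknown, no count model was run, and a missing peak means only that none was called.

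Overlapping peaks (1 bp or more) were merged. Gene ends and promoter windows came from RefSeq GRCm38.p6, without mitochondrial genes. A nearby gene need not be the one a region acts on. Linked length per gene and covered length per region were scaled to the median library total and tested with limma 3.58.1 (trend) on the log2 scale, after adding 200 bp for genes, with Benjamini-Hochberg adjustment over all genes or regions and a threshold of 0.05. Presence was tested with Fisher's exact test. Genes and regions with a peak in at least 2 libraries were tested, or in all 8 for covered length. Alternatives were an added length of 1000 bp, no scaling, equal numbers of peaks, the upper 50% of each list, linking within 10 kb, an overlap of 100 bp, no filter, linking of merged regions, limma without the trend, and leaving out each library. The code was tested on simulated data. Python 3.11.15 and R 4.3.3 were used. The genes, lists and tests were chosen with earlier results of these data known. Regions given in full are each gene's promoter (or nearest), strongest and widest linked regions. Also given are linked regions called in at least 3 libraries of one genotype and at most 1 of the other. Other regions and genes were named after their values were seen.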

Additional observations from a re-analysis of the deposited data

Results flagged for a closer look

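One library stood apart from the other 3 of its genotype in 3 of the 38 groups of 4 values examined (linked length of the 10 genes and covered length of the 9 promoter regions, MUT and WT). Chance flags about 1 in 20 groups. The linked length of Ptpn11 was 3222 bp in MUT replicate 28, with the other MUT libraries at 3566 to 3595 bp. The promoter region of Lcp2 covered 489 bp in MUT replicate 28, with the other MUT libraries at 289 to 315 bp. The linked length of Vav1 was 2823 bp in WT replicate 7, with the other WT libraries at 3065 to 3097 bp. WT replicate 7 was also the shortest list, with 42695 peaks.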

How the results depend on the processing

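No paired analysis was possible because the MUT and WT replicate numbers are not shared. For linked length, 0 of the 10 genes passed under each of 15 alternatives, with a lowest adjusted p of 0.224 (limma), and the sign was kept in 134 of 150 values. The sign turned for Fyn (0.0091) and Vav1 (0.0027) without scaling, for Fyn (0.052) and Plcg1 (-0.13) with the upper 50% of each list, for Vav3 (-0.021) and Plcg2 (-0.0042) with equal numbers of peaks, and for Syk (0.020) and Vav3 (-0.0056) with linking within 10 kb. Leaving out one library turned it for Vav3 (-0.054 without MUT replicate 27, -0.018 without 28; range -0.054 to 0.15), Plcg2 (-0.039 without MUT replicate 29, -0.017 without WT replicate 4, -0.0045 without WT replicate 5; range -0.039 to 0.020) and Ptpn11 (-0.015 without MUT replicate 26, -0.038 without 29 and -0.042 without WT replicate 4; range -0.042 to 0.062). Plcg1 kept its sign, at 0.0049 (without MUT replicate 27) to 0.18 (without MUT replicate 29). Over all genes 96 passed, 41 with linking within 10 kb and 22 to 79 with one library left out. Without scaling 82 passed, of which 76.8% were higher in MUT, against 65.6% with it.

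For covered length, 26 regions passed, and 17 to 48 with one library left out. Of the regions of the 10 genes, 1 of 67 tested passed with equal numbers of peaks (Syk at 32.5 kb, -0.79), where 31 of all 32525 did, and 0 passed under the other 11 alternatives. The sign turned for the promoter region of Syk (0.0068 without scaling, 0.0095 without MUT replicate 27; range with one library left out -0.032 to 0.0095), of Plcg2 (-0.0080 without WT replicate 4, -0.014 without WT replicate 7; range -0.014 to 0.032) and of Ptprc (-0.030 without WT replicate 7; range -0.030 to 0.345). MUT-only regions numbered 292, and 346 to 522 with one library left out; WT-only regions numbered 89, 138 with equal numbers of peaks and 102 to 196 with one library left out, where fewer libraries have to have or lack a peak. For the 10 genes the MUT-only count was then 0 to 1 (Lcp2 at 27 kb without MUT replicate 26, Lcp2 at 72.9 kb without WT replicate 6, Plcg1 at 3.2 kb without MUT replicate 29). With the upper 50% of each list, 1 region was WT-only (Lcp2 10.4 kb upstream). Other causes were not tested. Depth is unknown, so its part in these values was not tested.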
